A study of Homo sapiens with 8 samples.

Results

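Iron metabolism was followed through 10 genes of iron storage, uptake, export and heme breakdown. They were taken by symbol from the 26364 rows of the expression table: the ferritin chains FTL and FTH1, the transferrin receptor TFRC, the metal transporters SLC11A1 and SLC11A2, the iron exporter SLC40A1, the heme oxygenase HMOX1, the ferritin cargo receptor NCOA4, and the iron regulatory proteins ACO1 and IREB2. All 10 symbols had a row, and 9 of the 10 reached the level needed for testing. RNA-seq was performed on MV4-11, an established line of acute myeloid leukemia (AML) cells that carries a FLT3 internal tandem duplication (FLT3-ITD) and the MLL-AF4 fusion, both of which all groups share. Cells received the vehicle DMSO (control), tranylcypromine (TCP, an inhibitor of the histone demethylase LSD1) at 5 µM, palbociclib (an inhibitor of the cell cycle kinases CDK4 and CDK6) at 0.5 µM, or both drugs at those doses (combination). Each of the 4 groups had 2 libraries, 8 in all, labelled as day 4. The sample labels give 4 days for either drug or both, whereas the general schedule of the study has the CDK6 inhibitor alone first and TCP added later, so the exposure to TCP may have been shorter than that to palbociclib. The study's methods also describe growth of its AML lines on human HS-5 stromal cells, which the labels of these libraries do not mention. No label says whether the 2 libraries of a group came from separate cultures, so p-values measure the spread between these libraries, which may be technical, and a single line is the only model here.

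Cells bring in transferrin-bound iron through TFRC, move it out of the endosome through SLC11A2, and keep the surplus inside ferritin shells built of heavy (FTH1) and light (FTL) chains. NCOA4 carries ferritin to lysosomes, where the iron is freed again, HMOX1 frees iron from heme, and SLC40A1 (ferroportin) lets iron leave the cell. When iron is low, ACO1 and IREB2 bind hairpins in mRNA named iron-responsive elements: in the leader of a ferritin mRNA this blocks translation, and in the tail of the TFRC mRNA it protects the transcript from decay. Monocytes and macrophages are known for large ferritin stores and for recovering iron from heme.

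The hairpins are shown because ferritin and TFRC transcripts carry them at different ends. A search of the untranslated regions of the 10 genes for an unpaired C, a stem of 5 base pairs (G-T pairs allowed) and a CAGTGN loop found 7 sites in 4 genes. The sites below are written 5′ to 3′ as DNA of GRCh37, with the unpaired C and the loop in capitals. FTL has 1 site in its 5′ untranslated region on the plus strand at chr19:49468592-49468620, FTH1 has 1 in its 5′ untranslated region on the minus strand at chr11:61735046-61735074, and SLC40A1 has 1 in its 5′ untranslated region on the minus strand at chr2:190445387-190445415. In TFRC the search found 4, all in the 3′ untranslated region on the minus strand. They are at chr3:195777850-195777878 (a), chr3:195777446-195777474 (b), chr3:195777381-195777409 (c) and chr3:195777334-195777362 (d), where a to d are labels of this list only.
FTL: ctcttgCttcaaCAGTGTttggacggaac
FTH1: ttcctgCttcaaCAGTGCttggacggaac
SLC40A1: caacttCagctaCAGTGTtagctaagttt
TFRC a: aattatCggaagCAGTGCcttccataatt
TFRC b: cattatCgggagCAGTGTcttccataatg
TFRC c: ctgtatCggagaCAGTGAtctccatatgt
TFRC d: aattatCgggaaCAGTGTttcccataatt

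By the same search, 0.0921% of the 19553 annotated canonical transcripts held a match in the 5′ region and 0.619% in the 3′ region. The ferritin genes and TFRC thus carry the element at opposite ends of the mRNA. The other 6 genes had no match to these letters in the annotated regions. A search this strict misses variant hairpins, also in genes that had matches, and SLC11A2 is known to have a transcript form with an iron-responsive element in its 3′ region.

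Expression was given as TPM, a transcript level scaled by gene length and library total that allows genes to be set side by side but keeps no read depth, so the depth behind each value is unknown. Changes were tested with limma on log2(TPM + 1), a scale that understates changes of low genes, over the 14151 genes that reached 1 TPM in 2 or more libraries, with Benjamini-Hochberg adjustment over all of them. "Rose" and "fell" are used below for an adjusted p under 0.05, and a differentially expressed gene (DEG) also needed an adjusted p under 0.01 and a log2 fold change of at least 1 in size. The TCP, palbociclib and combination changes share the same 2 control libraries. On this scale the median gene moved by -0.04 with TCP, by -0.16 with palbociclib and by -0.22 with both, and the changes below can be read against it.

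Between 13320 and 13640 genes per library had at least 1 TPM, and replicates correlated at 0.983 to 0.991 across genes. The AML marker list, 7 of whose 8 genes were detected, summed to 759 to 840 TPM in every library, although its genes moved both ways: 3 rose and 3 fell under palbociclib and under the combination. The receptor FLT3 fell from a mean of 235 TPM in control to 82.3 and 71.8, HOXA9 fell from 161 to 109 and 96.6, and the myeloid factor SPI1 rose from 232 to 437 and 467. Of the 8 monocyte and macrophage markers 6 were detected, and their sum, mostly the single gene LYZ, moved with the treatments. Sums were 417 and 893 TPM in control, 874 and 1836 in TCP, 17162 and 19832 in palbociclib, and 27647 and 29724 in the combination. LYZ alone was at 278 and 770 TPM in control, 718 and 1696 in TCP, 16431 and 18984 in palbociclib, and 26591 and 28617 in the combination. By limma 5 of the 6 markers rose with palbociclib alone (median log2 fold change 1.93). With both drugs 6 rose (median 2.54), and with TCP alone 0 passed (median 0.77). The macrophage scavenger receptor CD163 stayed under 1 TPM and MRC1 was at 0 in all libraries. Of the 10 erythroid markers, 7 were at 0 in every library and EPOR alone passed 1 TPM. The stromal sum was 63.6 TPM in palbociclib replicate 2 against 0.563 to 10.6 in the other 7 libraries, and its part in the results was not tested. The lymphoid sum was 2.40 to 5.33. The part of the monocyte markers in the changes below was not tested, and in bulk RNA a different number of cells of a type and a different RNA amount per cell cannot be told apart.

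Under palbociclib 6 of the 9 tested genes rose and 1 fell, and 2 did not pass the test. Among all genes tested, 14.8% rose and 30.2% fell in that comparison. Under the combination 6 again rose and 1 fell, beside 15.9% and 37.6% of all genes. Under TCP alone, limma called 0 of the 9 genes, beside 0.29% of all genes higher and 0.141% lower. At an unadjusted p under 0.05 there was 1 of the 9 (FTH1), beside 1241 of all 14151 genes. Across the 9 genes the middle log2 fold change was 0.00 with TCP, 0.81 with palbociclib and 0.99 with both drugs. SLC11A1 reached 1 TPM in 1 control library only, so it entered the test through the groups where it was high, and these counts and medians include it. Both palbociclib libraries lay above both control libraries for 6 genes and below them for 1, beside 26.5% and 49.7% of all genes, and the combination gave the same counts beside 26.0% and 54.2%. DEGs numbered 3 under palbociclib (FTL, SLC11A1 and HMOX1) and 4 under the combination (these and FTH1), beside 9.1% and 13.7% of all genes. The same limit applies to SLC11A1 in these DEG counts.

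**Figure D1:**
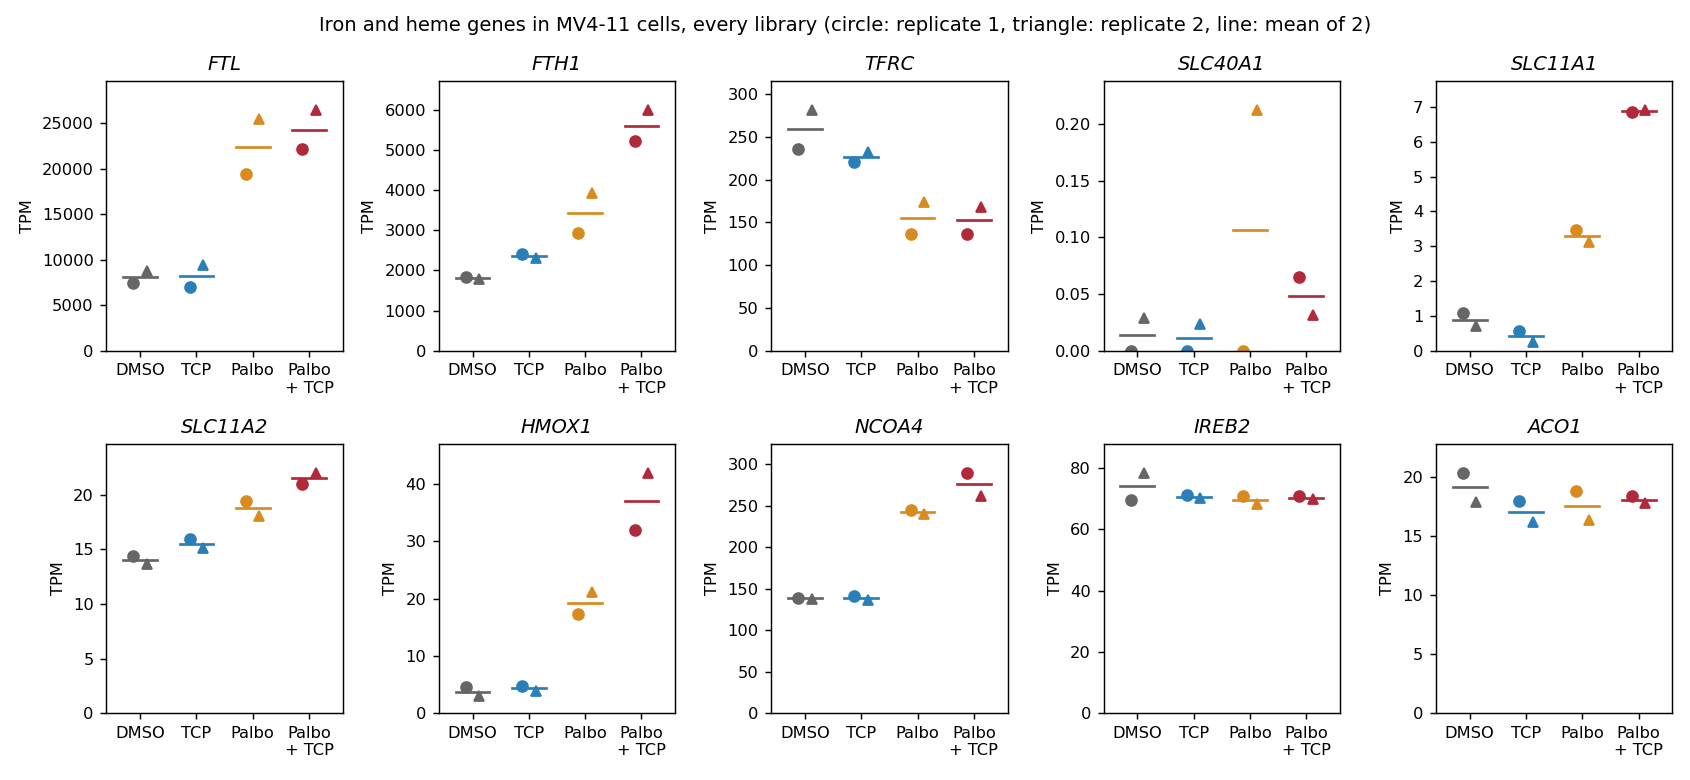
Expression of the 10 genes in TPM (linear y axes that start at 0 and differ between panels) in each of the 8 libraries, grouped by treatment on the x axis, with circles for replicate 1, triangles for replicate 2 and lines for the mean of 2. FTL, FTH1, SLC11A1, SLC11A2, HMOX1 and NCOA4 lie higher and TFRC lower in all 4 libraries with palbociclib than in both control libraries, while IREB2 stays between 68.3 and 78.4 TPM.

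FTL encodes the light chain, which helps form the mineral core of ferritin. It was at 7414 and 8799 TPM in control, 6955 and 9362 in TCP, 19423 and 25430.0 in palbociclib, and 22105 and 26447 in the combination. The TCP libraries enclosed the control range, whereas all 4 libraries with palbociclib lay above all 4 without it. The group means were 8107 ± 979 TPM in control and 22427 ± 4247 in palbociclib (SD, n = 2), a 2.77-fold higher level, and the combination mean was 24276 ± 3070. The log2 fold change by limma was 1.46 (SE 0.20, adjusted p = 0.00138) under palbociclib and 1.58 (SE 0.20, adjusted p = 0.00067) under the combination. Forcing all libraries to the same distribution (quantile normalization) cut these to 0.74 and 0.67, below the fold of a DEG but with adjusted p still under 0.05. That step sets each value from the gene's rank in its library, and FTL ranked 2 to 5 in every library.

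FTH1 encodes the heavy chain, which carries the ferroxidase activity that oxidizes iron for storage. Its levels were 1843 and 1776 TPM in control, 2400 and 2307 in TCP, 2924 and 3933 in palbociclib, and 5212 and 5996 in the combination. No 2 groups overlapped, and the order was control, TCP, palbociclib, combination. The palbociclib mean of 3429 ± 714 TPM (SD, n = 2) was 1.89-fold the control mean of 1810 ± 47.3, and the combination mean of 5604 ± 554 was 3.10-fold. By limma the log2 fold change was 0.91 (SE 0.14, adjusted p = 0.00259) under palbociclib and 1.63 (SE 0.14, adjusted p = 0.000167) under the combination. The palbociclib value was 1.08 with median-ratio scaling (limma adjusted p = 0.00207), past the limits of a DEG, and 0.94 with quantile normalization. The step from control to TCP, 0.38 on the log2 scale (SE 0.14), did not pass (limma adjusted p = 0.494).

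FTL and FTH1 together made up 0.926% and 1.06% of all TPM in the control libraries, 0.935% and 1.17% in TCP, 2.23% and 2.94% in palbociclib, and 2.73% and 3.24% in the combination. FTL stood 5th in both control libraries and 2nd or 3rd with palbociclib, and FTH1 moved from ranks 63 and 64 in control to ranks 14 and 11 in the combination. The heavy to light chain ratio was 0.249 and 0.202 in control, 0.345 and 0.246 in TCP, 0.151 and 0.155 in palbociclib, and 0.236 and 0.227 in the combination. Palbociclib alone thus had the lowest ratios, below both control and both combination libraries. Each of these differences had p = 0.33 by a two-sided exact permutation test, the smallest that 2 libraries against 2 allow.

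**Figure D2:**
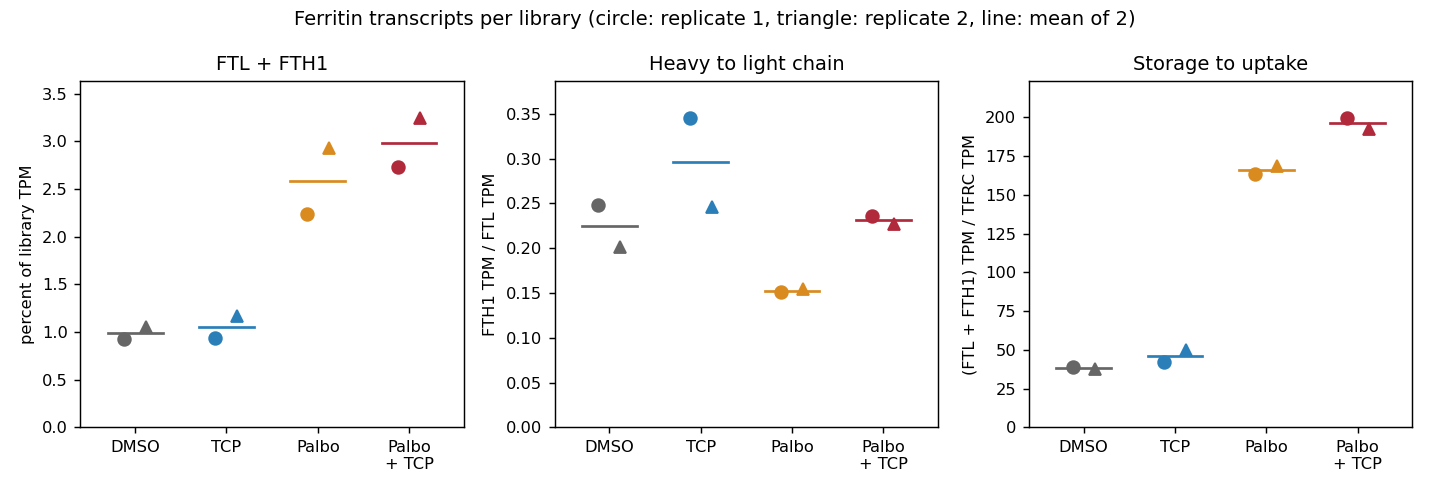
Ferritin transcripts per library (linear y axes from 0; circles replicate 1, triangles replicate 2, lines the mean of 2): FTL plus FTH1 as a percent of library TPM, FTH1 TPM divided by FTL TPM, and ferritin TPM divided by TFRC TPM. The share is 0.926% to 1.17% without palbociclib and 2.23% to 3.24% with it, the chain ratio is lowest with palbociclib alone (0.151 and 0.155), and the storage to uptake ratio is 37.5 to 50.2 without palbociclib and 164 to 199 with it.

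Ferritin genes have many processed copies in the genome, and reads shared with them could be counted to either, so the ferritin levels carry that uncertainty. Of the copies, FTH1P3 had the order of FTH1 at far lower levels, with means of 7.82 TPM in control, 11.2 in TCP, 16.4 in palbociclib and 28.5 in the combination. Its log2 fold change by limma was 0.97 (adjusted p = 0.00157) under palbociclib and 1.74 (adjusted p = 0.000108) under the combination. The 584 bases of its annotated transcript align to the FTH1 transcript with 530 identical bases, or 90.8%. The rows FTH1P18 and FTLP10 were at 0 in all libraries.

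NCOA4 delivers ferritin to lysosomes for breakdown. It was at 139 and 138 TPM in control, 141 and 137 in TCP, 245 and 241 in palbociclib, and 290 and 262 in the combination. Both palbociclib groups were clear of the control and TCP libraries, which overlapped each other. By limma it rose by 0.81 on the log2 scale (SE 0.07, adjusted p = 0.000329) under palbociclib and by 0.99 (SE 0.07, adjusted p = 8.88e-05) under the combination, just below the fold set for a DEG. The combination value passed that fold with quantile normalization (1.11, limma adjusted p = 8.89e-05) and median-ratio scaling (1.23, limma adjusted p = 4.70e-05). The receptor for ferritin breakdown and both ferritin chains were therefore higher in the same libraries.

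TFRC, the receptor for transferrin-bound iron, was the single gene of the 10 that fell. It was at 236 and 282 TPM in control, 221 and 232 in TCP, 137 and 174 in palbociclib, and 137 and 168 in the combination. Its 4 libraries with palbociclib lay below the 4 without, and the 2 palbociclib groups overlapped. The mean fell from 259 ± 32.0 TPM in control to 155 ± 26.5 under palbociclib (SD, n = 2), 0.600 times control, and to 153 ± 22.2 under the combination, 0.589 times control. The log2 fold change by limma was -0.74 (SE 0.15, adjusted p = 0.00767) and -0.76 (SE 0.15, adjusted p = 0.00538) for palbociclib and the combination, respectively. Ferritin TPM per TFRC TPM was 39.1 and 37.5 in control, 42.4 and 50.2 in TCP, 164 and 169 in palbociclib, and 199 and 193 in the combination.

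SLC11A2 (DMT1), which passes iron from the endosome to the cytosol, was at 14.4 and 13.7 TPM in control, 15.9 and 15.1 in TCP, 19.4 and 18.1 in palbociclib, and 21.0 and 22.0 in the combination. The groups did not overlap, but the steps were small. By limma it rose by 0.39 on the log2 scale (SE 0.09, adjusted p = 0.0117) under palbociclib and by 0.58 (SE 0.09, adjusted p = 0.00178) under the combination. The palbociclib call was lost without control replicate 2 (adjusted p = 0.0706) and without palbociclib replicate 1 (adjusted p = 0.0687).

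SLC11A1 (NRAMP1) is the related transporter that macrophages place on lysosomes and phagosomes. It was near the limit of 1 TPM without palbociclib, at 1.07 and 0.696 TPM in control and 0.565 and 0.264 in TCP, and reached 3.47 and 3.12 in palbociclib and 6.86 and 6.92 in the combination. The TCP libraries were below control and both palbociclib groups above it. The mean was 3.73-fold control under palbociclib and 7.79-fold under the combination. On the log2(TPM + 1) scale it rose by 1.19 (SE 0.18, limma adjusted p = 0.00217) and by 2.07 (SE 0.18, limma adjusted p = 0.000161), while the TCP value of -0.42 did not pass (limma adjusted p = 0.588). SLC11A1 entered the test through the groups where it was high, so its p-values against control are a description.

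SLC40A1, the iron exporter, was listed at 0 in 3 of the 8 libraries and did not exceed 0.212 TPM, the value of palbociclib replicate 2, which also had the stromal signal. It was not tested. High storage transcripts were therefore seen in cells with no ferroportin transcript above 1 TPM in any group.

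HMOX1 opens the heme ring and releases its iron. It had the largest fold change of the 9 tested genes under both palbociclib treatments: 4.67 and 2.95 TPM in control, 4.83 and 3.93 in TCP, 17.3 and 21.1 in palbociclib, and 32.0 and 42.0 in the combination. Control and TCP overlapped, and the palbociclib and combination libraries formed separate higher steps. The mean was 3.81 ± 1.21 TPM in control (SD, n = 2), and it was 5.04-fold that in palbociclib (19.2 ± 2.73 TPM) and 9.71-fold in the combination (37.0 ± 7.08 TPM). By limma the log2 fold change was 2.09 (SE 0.22, adjusted p = 0.00054) under palbociclib and 2.99 (SE 0.22, adjusted p = 8.75e-05) under the combination. HMOX1 was a DEG under palbociclib in every fit that left out 1 library. Without palbociclib replicate 2, the library with the stromal signal, FTL and SLC11A1 were not DEGs (log2 fold changes 1.27 and 1.25). The loss was not particular to that library. FTL was also not a DEG without control replicate 1 (1.34). The same held for SLC11A1 without control replicate 2 (1.05) or palbociclib replicate 1 (1.14). In each of these fits the log2 fold change stayed above 1, and it was the adjusted p that was not under 0.01.

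The regulators themselves stayed close to their control levels. IREB2 was at 69.6 and 78.4 TPM in control, 71.1 and 70.1 in TCP, 70.8 and 68.3 in palbociclib, and 70.6 and 69.7 in the combination. ACO1, which doubles as the cytosolic aconitase, was at 20.4 and 17.9 TPM in control, 18.0 and 16.2 in TCP, 18.8 and 16.3 in palbociclib, and 18.4 and 17.8 in the combination. Both genes overlapped control under palbociclib and under the combination. Their log2 fold changes under the combination were each -0.07 by limma (95% interval -0.26 to 0.12 for IREB2 and -0.34 to 0.19 for ACO1), and the sign turned positive under quantile normalization and median-ratio scaling (0.09 and 0.17 for IREB2, 0.14 and 0.16 for ACO1). FBXL5, the iron-sensing subunit of the ubiquitin ligase that degrades the IREB2 protein, did change at the transcript level: 37.7 and 33.2 TPM in control, 35.4 and 26.7 in TCP, 111 and 101 in palbociclib, and 113 and 101 in the combination. Its log2 fold change by limma was 1.55 (adjusted p = 0.00035) and 1.57 (adjusted p = 0.000195) in the palbociclib and combination groups.

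**Figure D3:**
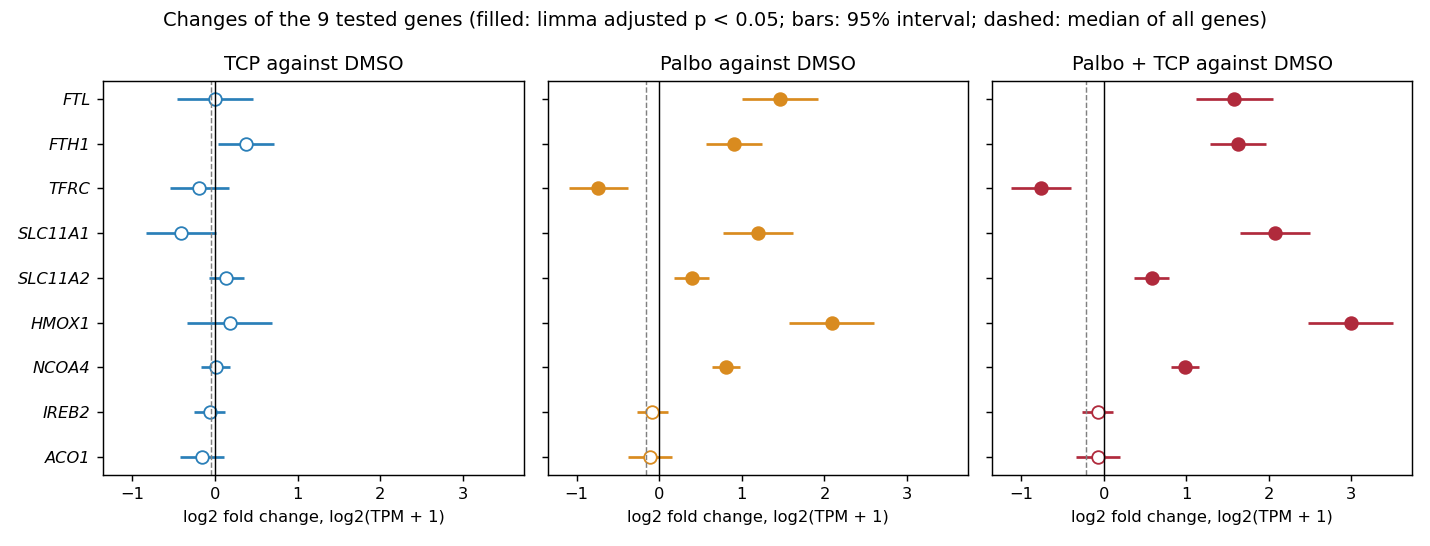
Log2 fold change against control on the log2(TPM + 1) scale for the 9 tested genes in each treatment (x axis), with 95% intervals from limma, filled points for an adjusted p under 0.05 and a dashed line at the median of all genes. No point is filled under TCP, and under palbociclib and the combination the filled points are the same genes, from TFRC at -0.74 and -0.76 to HMOX1 at 2.09 and 2.99.

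The addition of TCP to palbociclib was examined by comparing the combination with palbociclib alone. Of the 9 tested genes 1 (FTH1) rose, beside 2.05% of all genes higher and 1.44% lower. An unadjusted limma p under 0.05 was reached by 4 of the 9, beside 2472 of all 14151 genes. FTH1 was 1.63-fold higher, with a log2 difference of 0.72 (95% interval 0.38 to 1.06, limma adjusted p = 0.0464), a call that was lost in 12 of 16 alternative fits (adjusted p up to 0.265). SLC11A1 and HMOX1 had larger differences that did not pass, 0.88 (95% interval 0.45 to 1.30, limma adjusted p = 0.0511) and 0.90 (95% interval 0.39 to 1.42, limma adjusted p = 0.0799). The SLC11A1 difference passed with the replicate number as a block (limma adjusted p = 0.0225), which makes 2 genes, and also with quantile normalization (0.0425, where FTH1 did not), median-ratio scaling (0.0351), no mean-variance trend (0.0362) and without TCP replicate 1 (0.0436) or TCP replicate 2 (0.0429). The intervals for FTL, from -0.34 to 0.59, and for TFRC, from -0.38 to 0.34, include 0 and leave room for a shift of either sign. With the replicate number as a block they were narrower, from -0.04 to 0.29 for FTL and from -0.21 to 0.16 for TFRC, and still included 0.

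Whether the drugs together departed from the sum of their separate log2 changes was tested as an interaction on the log2(TPM + 1) scale. A sum on this scale is not a sum of changes in TPM. By limma 0 of the 9 genes passed, with 1 at an unadjusted p under 0.05, beside 0.0% of all genes called and 904 of 14151 at an unadjusted p under 0.05. The gene was SLC11A1, whose interaction was 1.29 on the log2 scale (SE 0.25, unadjusted p = 0.00143, limma adjusted p = 0.299). SLC11A1 was near the limit of testing without palbociclib and entered the test through the groups where it was high, so this value is a description. The HMOX1 interaction was 0.72 (95% interval -0.0061 to 1.45). With an interval that wide, the lack of a call does not show that the log2 changes add up. Against TCP alone, the combination had the same 6 genes higher and TFRC lower, beside 16.5% of all genes higher and 33.8% lower, and the log2 differences were 2.81 for HMOX1 (limma adjusted p = 0.000125) and -0.57 for TFRC (limma adjusted p = 0.0184).

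Other genes of iron and heme metabolism were counted in 6 lists, and under TCP 0 of the genes tested in these lists passed the limma test. An unadjusted p under 0.05 under TCP was reached by 2 uptake, 1 heme synthesis and 1 mitochondrial gene, beside 1241 of all 14151 genes. Genes named below without values lie outside the rule for naming and were named after their values were seen. The list counts below stand beside the 14.8% of all genes that rose and 30.2% that fell under palbociclib, and the 15.9% and 37.6% under the combination. In the list of endosomal and other iron uptake, 8 of 15 genes were tested, and 2 rose (LRP1 and MCOLN1) and 2 fell (SLC39A14 and TFR2) under palbociclib, while under the combination STEAP3 and STEAP4 also rose, which makes 4, and the same 2 fell. STEAP4 reached 1 TPM in the combination libraries only and was tested because of them. LRP1, a scavenger receptor that takes up heme bound to hemopexin, had means of 1.95 TPM in control, 4.65 in TCP, 9.76 in palbociclib and 35.9 in the combination, and it rose by 1.83 (limma adjusted p = 0.0014) and 3.63 (limma adjusted p = 6.97e-05) on the log2 scale. It was also higher in the combination than with palbociclib alone, by 1.80 (limma adjusted p = 0.0151). SLC39A14 (ZIP14), an importer of iron not bound to transferrin, fell from 64.6 TPM to 24.0 and 22.3, a log2 fold change of -1.39 (limma adjusted p = 0.000113) under palbociclib. MCOLN1, a lysosomal channel that can release iron, went from 9.92 TPM to 18.1 and 23.4, and the endosomal ferrireductase STEAP3 from 10.8 to 14.1 and 24.2. MCOLN1 passed under both treatments, and STEAP3 under the combination (log2 fold change 1.07, limma adjusted p = 0.00609) but not under palbociclib (0.34, limma adjusted p = 0.248).

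Of the cytosolic iron handling and ferritin turnover list, 10 of 12 genes were tested and FBXL5 was the 1 that rose. Under each of palbociclib and the combination 5 of the 10 (50.0%) fell, among them GLRX3, a glutaredoxin that handles iron-sulfur clusters, from 63.8 TPM in control to 33.0 and 34.8, and CISD2, a membrane protein that holds an iron-sulfur cluster, from 16.4 to 9.65 and 6.77. The mitochondrial CISD1 fell from 36.6 TPM to 21.3 and 21.6, and the iron chaperones PCBP1 and PCBP2 completed the 5. The 5 became 3 under palbociclib without control replicate 1 or without palbociclib replicate 2, and 3 under the combination without control replicate 1, without combination replicate 2 or with median-ratio scaling. In the export and hepcidin list 4 of 9 genes were tested, of which 2 fell under palbociclib (CP and FAM132B, the erythroferrone gene), and 1 rose and 3 fell under the combination. The 3 became 1 with quantile normalization, with median-ratio scaling, or without control replicate 1 or either combination library, and the 2 became 1 without control replicate 1 or palbociclib replicate 2. The 1 that rose became 0 without control replicate 2 or either combination library. The ferroxidase CP (ceruloplasmin) fell from 11.9 TPM to 6.39 under palbociclib (log2 fold change -0.81, limma adjusted p = 0.0189) and 6.98 under the combination. BMPR2, a receptor of the hepcidin pathway, rose under the combination (3.69 to 6.49 TPM, limma adjusted p = 0.0221), and its ligand BMP6 fell there (27.8 to 22.9 TPM, log2 fold change -0.27, limma adjusted p = 0.0272), close to the median gene.

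For heme synthesis, 13 of 14 genes were tested. Under palbociclib 2 rose (15.4%) and 3 fell (23.1%), near the shares of all genes, and under the combination 3 rose and 3 fell. With quantile or median-ratio scaling 4 were higher under palbociclib and 5 under the combination. More of all genes rose on those scales too: 19.2% and 20.9% under palbociclib, 21.7% and 24.1% under the combination. With the replicate block 5 were lower under the combination, beside 6077 of all 14151 genes. ALAS1, the first and rate-limiting enzyme in cells outside the red lineage, rose from 71.4 TPM to 137 (log2 fold change 0.93, limma adjusted p = 0.000709) and 123. FECH, the last enzyme, which inserts iron into the ring, fell from 14.9 TPM to 9.38 and 7.49. The mitochondrial transporter ABCB10 fell from 202 TPM to 113 and 121. ALAD, the second enzyme, rose under both treatments and the transporter TMEM14C under the combination.

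Of the genes for heme transport, scavenging and breakdown, 14 of 17 were tested, and 5 rose and 3 fell under palbociclib and 6 rose and 3 fell under the combination. HP (haptoglobin), which binds free hemoglobin, had the largest fitted change but was under 1 TPM in all libraries without palbociclib and was tested only because of those with it. It went from 0.510 and 0.535 TPM in control to 23.9 and 16.0 in palbociclib and 16.7 and 9.31 in the combination, a log2 fold change of 3.76 (limma adjusted p = 0.000177) and 3.15 (limma adjusted p = 0.000179). FLVCR2, a transporter of the heme exporter family, rose from 10.7 TPM to 42.7 and 50.3, by 1.91 (limma adjusted p = 4.75e-05) and 2.14 (limma adjusted p = 2.14e-05) on the log2 scale. POR, the reductase that feeds electrons to heme oxygenase, rose from 44.8 TPM to 87.5 and 102, beside HMOX1. SLC46A1, a folate and heme importer, went from 1.62 TPM to 4.23 and 5.28 and passed under both. SLC48A1 rose under palbociclib, the regulators BACH1 and NFE2L2 rose under the combination, and PGRMC1 and PGRMC2 fell under both, joined by BLVRB under palbociclib and FLVCR1 under the combination.

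For the mitochondrial list the counts were lopsided. Of 26 genes for mitochondrial iron and iron-sulfur cluster assembly, all of which were tested, 1 rose and 13 (50.0%) fell under palbociclib, and 1 rose and 15 (57.7%) fell under the combination, against 30.2% and 37.6% of all genes lower. The list medians were -0.34 and -0.45 on the log2 scale. With median-ratio scaling, which removes the shift of the median gene, 2 rose and 6 fell under palbociclib and 2 rose and 8 fell under the combination. On that scale 19.5% and 22.7% of all genes fell, and 20.9% and 24.1% rose. Fewer of the 26 fell under palbociclib without control replicate 1, control replicate 2 or palbociclib replicate 2. Fewer of all genes fell in these fits as well. The mitochondrial chaperone HSPA9 fell from 406 TPM to 265 and 237, and the cluster carrier NFU1 from 22.0 to 11.4 and 11.0. SLC25A28 (mitoferrin 2), which brings iron into mitochondria, rose from 52.2 TPM to 116 under palbociclib (log2 fold change 1.14, limma adjusted p = 0.000158) and to 82.5 under the combination (0.65, limma adjusted p = 0.000719), and it was lower in the combination than with palbociclib alone (-0.49, limma adjusted p = 0.03).

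**Figure D4:**
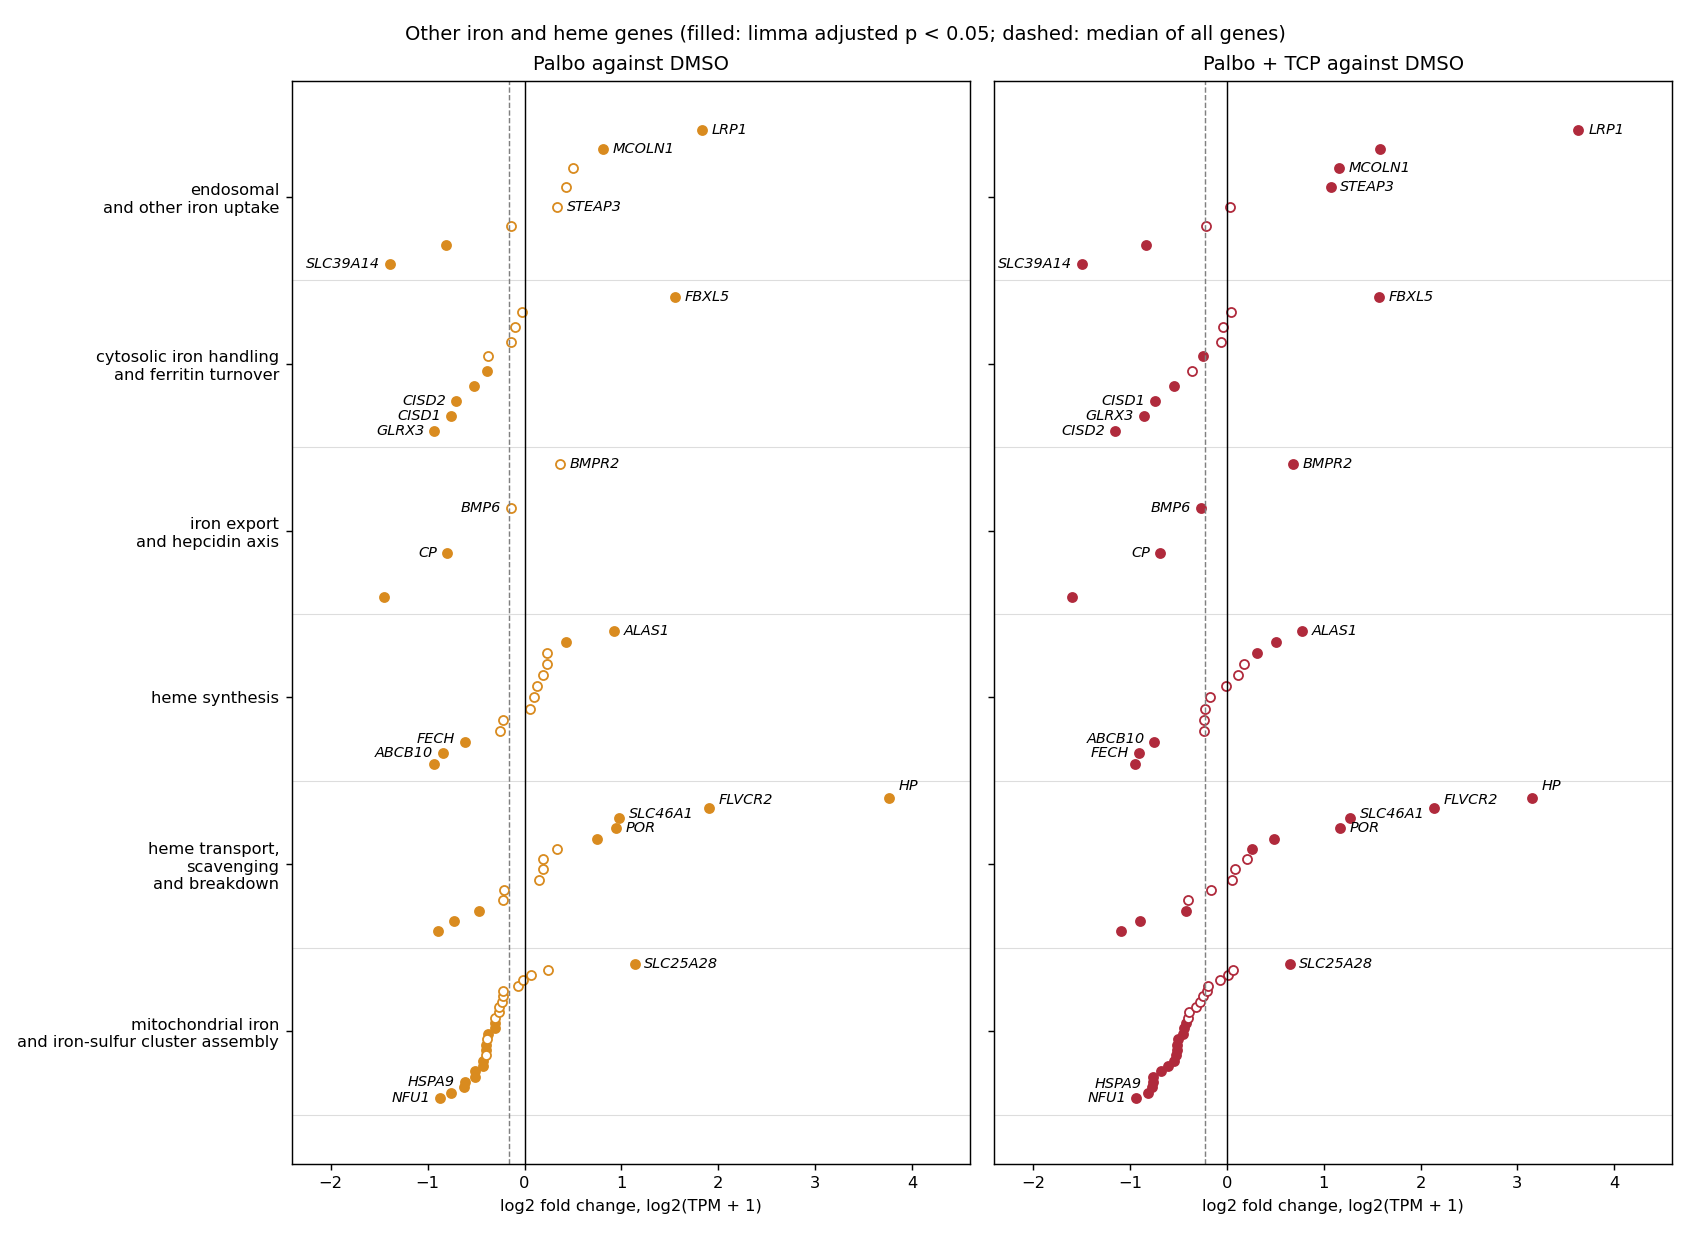
Log2 fold change against control on the log2(TPM + 1) scale (x axis) of the tested genes in the 6 lists of iron and heme genes (y axis, ordered by value within a list), for palbociclib and for the combination, with filled points for a limma adjusted p under 0.05 and a dashed line at the median of all genes. LRP1, FBXL5, HP and FLVCR2 stand on the right in both panels, and in the mitochondrial list 13 and 15 filled points lie to the left of 0 and 1, SLC25A28, to the right.

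The promoters of the 10 genes were also searched for the antioxidant response element, the motif TGACNNNGC, on both strands. RefSeq windows of 300 bases around the start site (GRCh38.p14) were found for 8 of the 10, without FTH1 and HMOX1. These 8 genes have 13 windows, and 1 of the 13 (7.69%) held a match, in 1 of the 2 windows of NCOA4, beside 13.3% of all 35116 windows. Sequence farther from the start sites was not searched, so elements there would be missed.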

How the data were processed

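RNA was measured in 8 MV4-11 libraries. The authors aligned reads to hg19 (GRCh37) with Subread, counted them per gene with featureCounts 1.6.4 and deposited TPM values per gene and library; SAMtools 1.9 and DESeq2 1.26.0 are also in the submitters' processing notes. Gene lengths and the strand setting are not given in the sources used here. The kit was a stranded mRNA kit. As the deposited TPM values are not counts, the count test of the study was replaced by limma 3.58.1 in R 4.3.3 on log2(TPM + 1), with a mean-variance trend, 1 coefficient per group and all 8 libraries in 1 fit. The script was tested on simulated data. Genes of the lists were named if they passed in at least 1 comparison with control and reached a group mean of 5 TPM, at most 4 per list. The 10 genes and the lists were chosen with earlier results of these data known. Replicate numbers come from the labels, and same-numbered libraries deviated together (correlations of 0.169 to 0.491 over 6 pairs of groups), which was taken as pairing by number. The main fit does not use this pairing, and only the replicate block does. Alternatives were a pseudocount of 0.1, no filter, a mean of at least 5 TPM, no trend, quantile normalization, median-ratio scaling, fits of only the groups compared, the replicate block, and each library left out. Hairpins were read from GENCODE transcripts (release 44 lifted to GRCh37), and promoters from RefSeq. Protein sequences were not used here, and some genes of the lists are counted but not reported here by name.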

Additional observations from a re-analysis of the deposited data

How the results depend on the processing

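Over 16 alternative settings, the 14 changes called under palbociclib or the combination against control gave 222 values. All 222 kept their direction and 220 kept their call, and the other 2 were SLC11A2 under palbociclib. The genes past the test in the combination against palbociclib, 1 in the report, became 0 with a pseudocount of 0.1, with no filter and with only the groups compared, 2 with median-ratio scaling and with the replicate block, and 0 to 1 with single libraries left out. DEGs under palbociclib ranged from 1 to 3 with single libraries left out. The block changed no other call of the 10 genes. With no filter the cytosolic list had 2 genes higher under palbociclib and 2 under the combination, and the export list had 3 higher under the combination. Of all 20660 genes in that fit, 2104 rose under palbociclib and 2330 under the combination. With a mean of at least 5 TPM the export list had 1 lower under palbociclib and 0 higher under the combination. Of all 11108 genes in that fit, 3930 fell under palbociclib and 1847 rose under the combination. With quantile normalization the export list had 1 lower under the combination, heme synthesis had 4 and 5 higher under palbociclib and the combination, and the mitochondrial list had 2 higher and 7 lower under palbociclib and 9 lower under the combination. On the quantile scale 19.2% of all genes rose and 23.1% fell under palbociclib, and 21.7% and 27.2% under the combination. With median-ratio scaling the cytosolic list had 3 lower and the export list 1 lower under the combination, heme synthesis had 4 and 5 higher, and the mitochondrial list had 2 higher and 6 lower under palbociclib and 2 higher and 8 lower under the combination. On the median-ratio scale 20.9% of all genes rose and 19.5% fell under palbociclib, and 24.1% and 22.7% under the combination. The replicate block gave 5 lower genes of heme synthesis under the combination, beside 6077 of all 14151 genes. With single libraries left out, the lower counts ranged from 3 to 5 in the cytosolic list under either treatment, from 1 to 2 and from 1 to 3 in the export list (0 to 1 higher under the combination), and from 5 to 12 in the mitochondrial list under palbociclib. Fewer of all genes also passed under palbociclib or the combination when a library of a compared group was left out. The cause of these shifts was not tested.

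Values that changed sign had passed no test. Median-ratio scaling gave a log2 change of 0.043 for FTL under TCP, 0.046 for TFRC in the combination against palbociclib, 0.088 and 0.17 for IREB2 and 0.051 and 0.16 for ACO1 under palbociclib and the combination. Quantile normalization gave -0.077 for FTL and 0.0033 for TFRC in the combination against palbociclib, 0.039 and 0.090 for IREB2, and 0.023 and 0.14 for ACO1. With single libraries left out, the TCP change ranged from -0.22 to 0.21 for FTL, -0.080 to 0.44 for HMOX1, -0.016 to 0.031 for NCOA4 and -0.15 to 0.020 for IREB2. The combination change ranged from -0.158 to 0.011 for IREB2 and -0.163 to 0.015 for ACO1. The combination against palbociclib ranged from -0.073 to 0.316 for FTL, -0.196 to 0.151 for TFRC, -0.013 to 0.039 for IREB2 and -0.053 to 0.14 for ACO1. A group left with 1 library was assumed to vary like the others, and the interaction has no fit of only the groups compared, since it uses all 4. The limits are 2 libraries per group, unknown depth and TPM values relative to each library's total.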

Other observations

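Outside the genes named by rule, and chosen after their values were seen, the endosomal heme transporter SLC48A1 was, like SLC25A28, lower in the combination than with palbociclib alone (log2 difference -0.54, limma adjusted p = 0.0358). It was at 14.1 and 14.8 TPM in control, 12.8 and 12.3 in TCP, 24.7 and 25.2 in palbociclib, and 15.8 and 18.1 in the combination. Its log2 fold change against control by limma was 0.75 (adjusted p = 0.00124) under palbociclib and 0.21 (adjusted p = 0.11) under the combination. TFR2, the second transferrin receptor, was chosen in the same way and fell from a mean of 7.74 TPM in control to 3.98 in palbociclib and 3.90 in the combination. With TCP alone its mean was 10.2 TPM, above control, but the change of 0.37 on the log2 scale did not pass (limma adjusted p = 0.469), and TFRC was below control there.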
